A study of Mus musculus with 7 samples.

Results

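The ErbB receptor and ligand genes analysed here were the 4 receptor genes Egfr, Erbb2, Erbb3 and Erbb4, the 4 genes of EGF receptor ligands Areg, Ereg, Hbegf and Tgfa, and the neuregulin gene Nrg1. An accessible region was counted as theirs when the nearest protein-coding transcription start to its midpoint was a start of 1 of these 9 genes. This gave 150 of the 119215 regions found in mammary tumor cells, where 17373 genes had at least 1 region. A region joined all overlapping or touching peaks of the Dll1+ and Dll1- lists.

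ATAC-seq, in which a transposase cuts and tags open chromatin, was performed on mammary tumor cells to compare accessibility between cells with and without the Notch ligand Dll1. All mice carried MMTV-PyMT, a transgene in which the mouse mammary tumor virus promoter drives the polyoma middle T oncoprotein, together with Dll1-mCherry, a reporter of Dll1 expression carried on a bacterial artificial chromosome. Tumors were digested, cells bearing CD45, CD31 or Ter119 were sorted out, and the rest were divided by mCherry into Dll1+ and Dll1- cells. The 7 samples came from 4 tumors, with 3 Dll1+ and 4 Dll1- samples, and 3 tumors gave both. The ages of the mice are not given in the sources used here. The study calls the sorted cells epithelial. Its sort as described removed leukocytes, endothelial and erythroid cells and names no epithelial marker, so other stromal cells could remain.

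ErbB receptors are tyrosine kinases at the cell surface that signal as pairs, mainly through the RAS-ERK and PI3K pathways. EGF receptor ligands are made as membrane proteins and shed by metalloproteases, ErbB3 and ErbB4 bind neuregulins, and ErbB2 has no ligand of its own and pairs with the others. In the mammary gland, amphiregulin from luminal cells acts on stromal EGF receptor during ductal growth, and ErbB4 acts in lactation.

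Each group was represented by 1 list that pooled its samples, so no value below could be set against the spread between tumors, no test was possible, and all intervals cover counting error only. The Dll1- list also pooled a tumor without a Dll1+ sample, and the part of that tumor in its regions could not be separated. The Dll1- list was deeper. The reads expected by its genome-wide background came to 7.20 per peak summit, against 3.74 for Dll1+, which is 1.93 times as many. On that background the weakest peak held 14 reads for Dll1- and 9 for Dll1+, so a region missing from a list was not called there and is not shown to be closed. Strength is therefore given as the percentile of a region's highest peak among all peaks of its own list, ranked by fold enrichment over the local background. A rank difference is the Dll1+ percentile minus the Dll1- percentile.

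The cell identity of the lists was read from promoters of marker genes. Peaks lay over the promoters of 15 of 17 luminal markers in Dll1+ cells and 16 of 17 in Dll1- cells, including Krt8, Krt18, Epcam and Elf5. Of 12 basal markers, 9 had a promoter peak in each list, while Krt5, Krt14 and Trp63 had none in either. Of 15 fibroblast markers, 1 had a promoter peak in Dll1+ cells and 7 in Dll1- cells, and Col1a1, Col3a1, Dcn and Lum had none in either. Immune markers had 2 and 3 promoter peaks of 12, with none at Ptprc, and endothelial markers had 1 and 1 of 10, with none at Pecam1 or Cdh5. Most luminal and most basal markers thus had a promoter peak in both lists. In Dll1+ and Dll1- cells, the median percentiles were 72.1 and 80.0 for the luminal promoters called. For the basal promoters called they were 81.25 and 81.22. The fibroblast promoters called for Dll1- stood at percentiles from 14.8 at Fap to 78.7 at Pdgfra, the 1 also called for Dll1+, at 67.4.

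The DNA of 6 regions is shown first: the strongest ErbB region of each list alone, and 4 shared regions that ranked at least 20 points apart with counting intervals that did not overlap. Of each region, 201 bases around the summit of its higher-ranked peak are printed on the plus strand of GRCm38. Capitals mark matches, on either strand, to any of 11 short consensus sequences. Factors of stress and growth signaling were searched as TGACTCA for AP-1, GGANNTTCC for NF-kB, GGAATG for TEAD and TTCNNNGAA for STAT. The Notch effector RBPJ was searched as GTGGGAA. Factors of epithelial and other lineages were searched as TGTTTAC for FOX, TGTGGTT for RUNX, AACCGGTT for GRHL, CCGGAAGT for ETS and AGATAA for GATA, and the GC box of promoters as GGGGCGG. A match is a description of the letters and not a bound site. The first 3 sequences come from regions that were called or ranked higher in the Dll1- list: the intron of Ereg at chr5:91083108-91083308, a region upstream of Egfr at chr11:16735362-16735562, and an intron of Nrg1 at chr8:32221329-32221529.
Ereg, Dll1- only: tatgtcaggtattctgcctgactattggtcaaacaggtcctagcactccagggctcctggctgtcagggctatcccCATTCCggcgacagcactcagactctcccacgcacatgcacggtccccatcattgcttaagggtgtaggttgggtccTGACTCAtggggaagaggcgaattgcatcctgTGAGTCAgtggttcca
Egfr, ranked higher in Dll1-: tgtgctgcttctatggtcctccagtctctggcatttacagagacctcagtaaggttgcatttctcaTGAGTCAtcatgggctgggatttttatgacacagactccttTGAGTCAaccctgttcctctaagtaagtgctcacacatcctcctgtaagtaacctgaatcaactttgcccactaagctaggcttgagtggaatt
Nrg1, ranked higher in Dll1-: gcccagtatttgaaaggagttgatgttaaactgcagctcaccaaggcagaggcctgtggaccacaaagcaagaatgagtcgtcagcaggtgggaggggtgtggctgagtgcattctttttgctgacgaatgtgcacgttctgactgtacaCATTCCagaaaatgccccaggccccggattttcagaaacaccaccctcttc
The Ereg window held 2 AP-1 matches and 1 TEAD match, the Egfr window held 2 AP-1 matches, and the Nrg1 window held 1 TEAD match.

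The other 3 come from regions that were called or ranked higher in the Dll1+ list: a region upstream of Erbb3 at chr10:128606077-128606277, a region farther upstream of Egfr at chr11:16696709-16696909, and an intron of Egfr at chr11:16761138-16761338.
Erbb3, Dll1+ only: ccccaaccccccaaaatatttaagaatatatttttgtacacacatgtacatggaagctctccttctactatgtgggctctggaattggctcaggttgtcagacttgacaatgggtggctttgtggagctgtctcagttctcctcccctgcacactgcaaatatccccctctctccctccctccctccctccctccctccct
Egfr upstream, ranked higher in Dll1+: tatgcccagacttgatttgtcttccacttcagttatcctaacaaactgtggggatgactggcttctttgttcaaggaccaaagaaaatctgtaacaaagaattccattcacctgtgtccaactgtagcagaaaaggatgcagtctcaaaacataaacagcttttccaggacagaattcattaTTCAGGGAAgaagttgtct
Egfr intron, ranked higher in Dll1+: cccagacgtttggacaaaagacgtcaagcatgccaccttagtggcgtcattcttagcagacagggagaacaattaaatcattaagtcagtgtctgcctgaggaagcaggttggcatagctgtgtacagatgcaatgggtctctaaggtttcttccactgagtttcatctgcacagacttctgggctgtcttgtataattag
The Erbb3 and Egfr intron windows held none of the 11 sequences, and the upstream Egfr window held 1 STAT match. Over all 119215 windows, AP-1 was found in 18.1%, TEAD in 14.8% and STAT in 6.91%.

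A promoter that was open in both lists is also shown. The 250 bases before the RefSeq start of Areg on GRCm38, at chr5:91139349-91139598 on the plus strand, held 1 RBPJ match, the sequence bound by the Notch effector.
Areg, upstream of the start: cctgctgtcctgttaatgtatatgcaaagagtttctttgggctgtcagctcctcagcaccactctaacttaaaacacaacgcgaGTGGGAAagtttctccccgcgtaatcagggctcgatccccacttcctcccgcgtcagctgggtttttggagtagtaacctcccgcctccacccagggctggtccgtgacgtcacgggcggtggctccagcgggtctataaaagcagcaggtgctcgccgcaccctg
The match lay outside the 201 bases around the summit of this promoter region, which held none of the 11 sequences. RBPJ matched in 5.42% of the 32851 RefSeq promoters of that length. RefSeq promoters were matched by symbol for 5 of the 9 genes, and RBPJ matched in Areg alone of these. The others held a TEAD match at Erbb2, a GC box at Tgfa and none of the 11 sequences at Egfr and Erbb4.

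Accessible chromatin at the 9 genes was mostly held in common. Both lists called 95 of the 150 regions, 63.3% (95% Wilson interval 55.4 to 70.6), against 66.4% of all regions. The Dll1+ list alone called 22 regions, 14.7% (9.89 to 21.2), against 9.01% of all regions. The Dll1- list alone called 33 regions, 22.0% (16.1 to 29.3), against 24.6% of all regions. Among regions of 1 list, 40% (28.1 to 53.2) of the 55 at ErbB genes belonged to the Dll1+ list, against 26.8% of 40062 over all genes. Without Nrg1, which gave 10 of the 22, the share was 35.3% (21.5 to 52.1) of 34, an interval that spans the value over all genes. The ErbB share stood above that over all genes under all 9 alternative settings, and its interval spanned the value over all genes under 5 of them, some with fewer regions. The same share was 40.5% for the luminal markers, 26.3% for the basal markers and 8.33%, 17.1% and 15.8% for the fibroblast, endothelial and immune markers. The part of cell composition in the ErbB share was not tested.

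Regions of 1 list were mostly weak. The 22 of the Dll1+ list alone had a median percentile of 25.8, from 2.98 to 69.2, and 15 to 66 reads, and 4 of them stood above percentile 50. The 33 of the Dll1- list alone had a median percentile of 38.2, from 10.2 to 90.1, and 21 to 136 reads, and 9 of them stood above percentile 50. Over all genes the medians were 29.4 and 32.6. Above percentile 50 stood 18.2% and 27.3% of the ErbB regions, against 15.4% and 22.3% over all genes. The Dll1- list is deeper, so the percentiles and not the reads compare the lists.

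**Figure D1:**
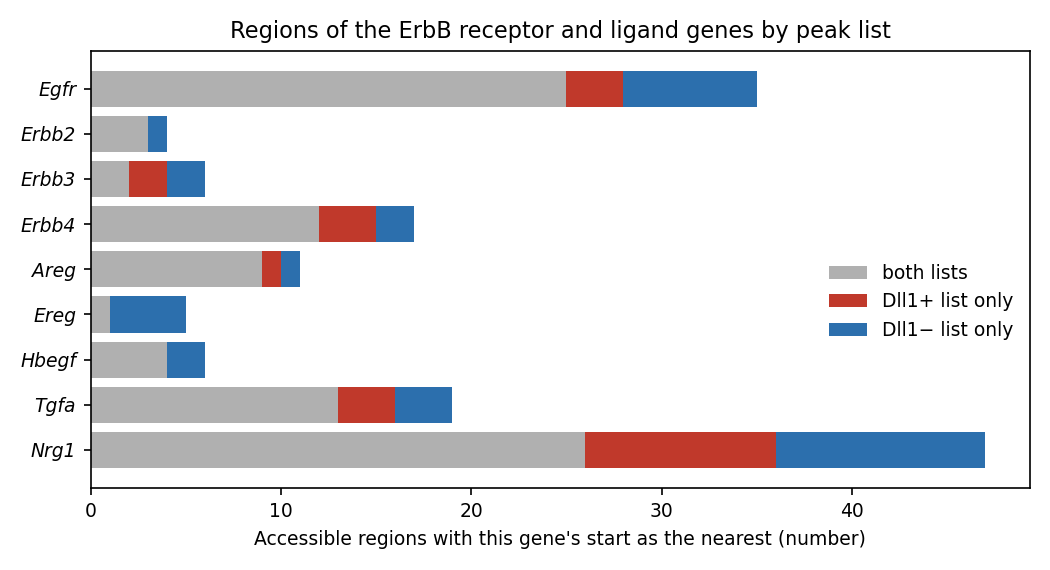
Number of accessible regions (horizontal axis) whose nearest protein-coding start was that of each ErbB gene, stacked by whether both lists, the Dll1+ list alone or the Dll1- list alone called them. Nrg1 had 47 regions and Egfr 35, and 4 of the 5 regions of Ereg were called in the Dll1- list alone.

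The genes differed in how many regions they held and how densely. Nrg1 held 47 regions, Egfr 35, Tgfa 19, Erbb4 17, Areg 11, Erbb3 and Hbegf 6 each, Ereg 5 and Erbb2 4. The stretch of chromosome nearest to the starts of each gene ranged from 19.3 kb for Erbb2 to 1554 kb for Nrg1. Per 100 kb of that stretch, Erbb2 held 20.8 regions, Erbb3 19.8, Hbegf 16.3, Egfr 15.8 and Tgfa 13.6. Ereg held 8.92, Areg 6.70, Nrg1 3.02 and Erbb4 1.33, and the whole genome held 4.37. Erbb4 and Nrg1, whose gene bodies span 1076 kb and 1069 kb, were thus the sparse members. Introns held 58.0% of the ErbB regions, against 46.9% of all regions, and intergenic sequence held 31.3% against 34.7%. Nrg1 had 41 of its 47 regions in introns. Without Nrg1 the shares were 44.7% and 41.75%, each on the other side of that of all regions. With all 9 genes, promoters held 6.67% against 11.7%. No ErbB region had its midpoint in a coding exon or a 3' UTR, which held 2.64% and 1.56% of all regions.

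Promoters differed little. The 9 genes have 17 annotated protein-coding starts, of which 13 lay under a promoter region called in both lists, 3 under a region of the Dll1- list alone and 1 under none. Of all 41433 protein-coding starts, 58.3% lay under regions of both lists, 2.97% under the Dll1- list alone, 0.577% under the Dll1+ list alone and 38.2% under none. A promoter reached from 1000 bp upstream to 100 bp downstream of a start. The 8 genes with a promoter region in both lists differed by between -6.61 percentile points at Tgfa and 4.00 points at Erbb3, and their counting intervals overlapped at all 8 genes. Taking the strongest promoter region of each gene, Ereg was the exception, with a promoter peak in the Dll1- list alone. Weaker promoter regions of the Dll1- list alone also lay at Nrg1 and Erbb3, which each had another promoter region called in both.

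**Figure D2:**
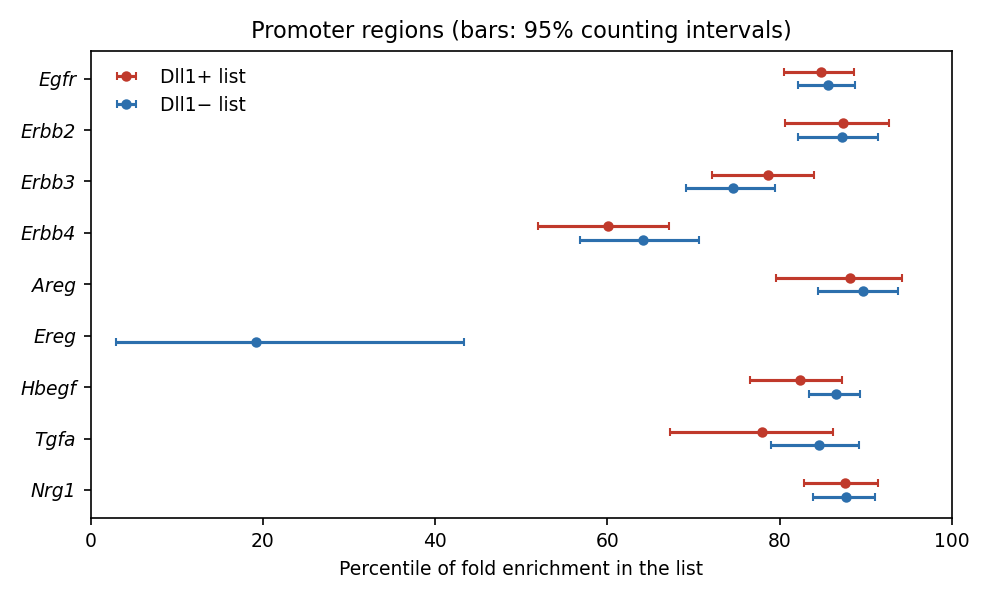
Percentile of fold enrichment (horizontal axis) of the strongest promoter region of each gene in Dll1+ and Dll1- cells, with bars for 95% counting intervals. The intervals overlap for the 8 genes called in both lists, and Ereg has a point at 19.2 in the Dll1- list only.

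Among shared regions, rank differences of 20 points or more were common and went both ways. Of the 95 shared ErbB regions, 11 ranked at least 20 points higher in the Dll1+ list, 11.6% against 6.39% of all shared regions. At least 20 points higher in the Dll1- list were 10 regions, 10.5% against 11.1% of all shared regions. Over all 95 shared regions, whatever their rank difference, counting intervals did not overlap at 4 regions higher in the Dll1+ list, 4.21% against 2.73%, and at 7 regions higher in the Dll1- list, 7.37% against 7.67%. Egfr held 2 of the former, and Tgfa and Nrg1 held 1 each. Nrg1 held 3 of the latter, Egfr 2, and Erbb4 and Tgfa 1 each. Of the 4 and the 7, 3 each ranked at least 20 points apart. The median rank difference was -1.51 points (-4.83 to 0.03), against -1.67 over all 79153 shared regions.

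**Figure D3:**
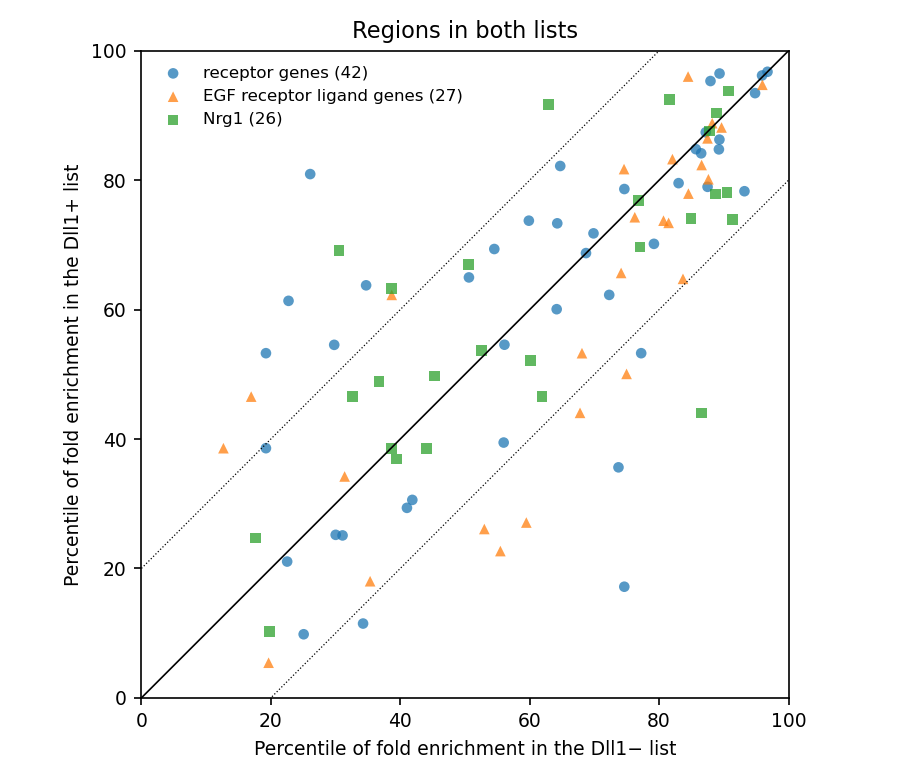
Percentile of fold enrichment of the 95 shared ErbB regions in the Dll1- list (horizontal axis) and the Dll1+ list (vertical axis), with 1 point per region (circles for receptor genes, triangles for EGF receptor ligand genes, squares for Nrg1), the line of equal rank, and dotted lines 20 points away from it. The 2 points farthest from the diagonal are Egfr regions, at 80.9 against 26.1 and at 17.2 against 74.6.

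Egfr, the receptor of EGF, amphiregulin, epiregulin, HB-EGF and TGF-alpha, held the largest rank differences of the family in both directions (chromosome 11, 16752203 to 16918158, plus strand). Of its 35 regions, both lists called 25, the Dll1+ list alone 3 and the Dll1- list alone 7. The region over its promoter stood at 11.7-fold with 303 reads in the Dll1+ list, percentile 84.8, and at 11.2-fold with 345 reads in the Dll1- list, percentile 85.7. Its strongest region in each list lay 78.5 kb into the gene, over the promoter of the antisense transcript Egfros, at percentile 96.75 in both lists. At the start and at the strongest region, the lists thus differed by less than 1 percentile point.

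The intergenic DNA upstream of Egfr held the widest difference in each direction. At 55.4 kb upstream, the region printed above held 49 reads and percentile 80.9 (68.3 to 90.3) in the Dll1+ list, against 27 reads and percentile 26.1 (6.32 to 49.34) in the Dll1- list. Its rank difference of 54.86 was the highest of the family, and with reads divided by each list's genome-wide background the log2 ratio of Dll1+ to Dll1- was 1.80. At 16.6 kb upstream, the order was turned. There the Dll1+ list held 16 reads and percentile 17.2 (1.27 to 45.1), the Dll1- list held 72 reads and percentile 74.6 (63.6 to 83.1), and the rank difference was -57.45, with a log2 read ratio of -1.22. This is the region whose window held 2 AP-1 matches, and the region at 55.4 kb held none.

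In an intron, a region 9.04 kb from the start also ranked higher in the Dll1+ list, at percentile 61.3 (49.6 to 70.9) with 94 reads against 22.7 (9.22 to 39.4) with 57 reads. A region 48.5 kb into the gene ranked higher in the Dll1- list by less than 20 points, at 93.2 (90.6 to 95.3) with 358 reads against 78.3 (71.1 to 84.4) with 148 reads. Regions of 1 list at Egfr were weak. The highest of the Dll1+ list stood at percentile 23.5 with 18 reads, 23.6 kb into the gene, and held a FOX and a RUNX match. The highest of the Dll1- list stood at percentile 38.2 with 87 reads, 58.1 kb into the gene, on a local background of 20.3 reads, and held an AP-1 and a GATA match.

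Erbb2, the receptor that works as a partner of the others and is amplified in a class of human breast cancers, showed no rank difference of 20 points (chromosome 11, 98412470 to 98437716, plus strand). Both lists called 3 of its 4 regions. The region over its start stood at percentile 87.4 in the Dll1+ list with 117 reads and 87.2 in the Dll1- list with 166 reads, a difference of 0.19 points. The other shared regions, 5.598 kb upstream and 6.65 kb into the gene, stood at 68.7 and 68.7, and at 84.2 and 86.5. The region of the Dll1- list alone lay 1.42 kb into the gene, in an intron, at percentile 22.7 with 49 reads.

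Erbb3, the neuregulin receptor with a weak kinase, shared 2 of its 6 regions (chromosome 10, 128567523 to 128589652, minus strand). Its promoter region stood at percentile 78.6 (72.2 to 84.0) with 190 reads in Dll1+ cells and at 74.6 (69.2 to 79.5) with 251 reads in Dll1- cells. The strongest region in each list lay 5.41 kb into the gene, at 84.8 with 266 reads and 89.2 with 456 reads. An intergenic region 16.5 kb upstream was called in the Dll1+ list alone, with 37 reads at 8.02-fold on the genome-wide background. Its percentile of 69.2 (51.6 to 82.4) was the highest of all 22 ErbB regions of that list alone, and placed it 258 of 10744 over all genes. The nearest peak of the Dll1- list lay 6.31 kb away. The other Erbb3 regions of 1 list lay within 0.27 kb of a peak of the other list, on local backgrounds of 26.8 to 42.7 reads, and reached percentile 29.0 at most.

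Erbb4, the other neuregulin receptor, is a long gene whose regions were sparse per length and lay mostly upstream (chromosome 1, 68032186 to 69108059, minus strand). Both lists called 12 of its 17 regions. The promoter region stood at percentile 60.1 (52.0 to 67.2) in Dll1+ cells and 64.2 (56.9 to 70.6) in Dll1- cells, with 192 reads in each. A stronger region 1.14 kb into the gene, outside the promoter as set here, stood at 79.5 and 83.0. Its strongest region was 57.4 kb upstream in the Dll1+ list, at 96.5, and 134.0 kb upstream in the Dll1- list, at 95.9. Inside the gene, the Dll1+ list alone called 3 regions, at 106.2, 234.2 and 272.8 kb from the start. They held 33, 25 and 20 reads, at percentiles 63.7, 48.9 and 35.6, and the nearest Dll1- peak lay 27.1 to 138.6 kb away. These are the only regions within the gene body that the Dll1+ list alone called, and the Dll1- list alone called 1 there, 965.1 kb from the start, at percentile 30.5. Upstream, the region at 178.5 kb ranked higher in the Dll1- list, at 73.7 (62.2 to 82.7) with 65 reads against 35.6 (10.3 to 60.4) with 20 reads. The region at 49.5 kb upstream stood at 53.3 in Dll1+ cells and 19.2 in Dll1- cells, with 27 and 24 reads and overlapping intervals. The strongest region of the Dll1- list alone was 261.6 kb upstream, at percentile 62.9 with 51 reads, and held an AP-1 match.

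**Figure D4:**
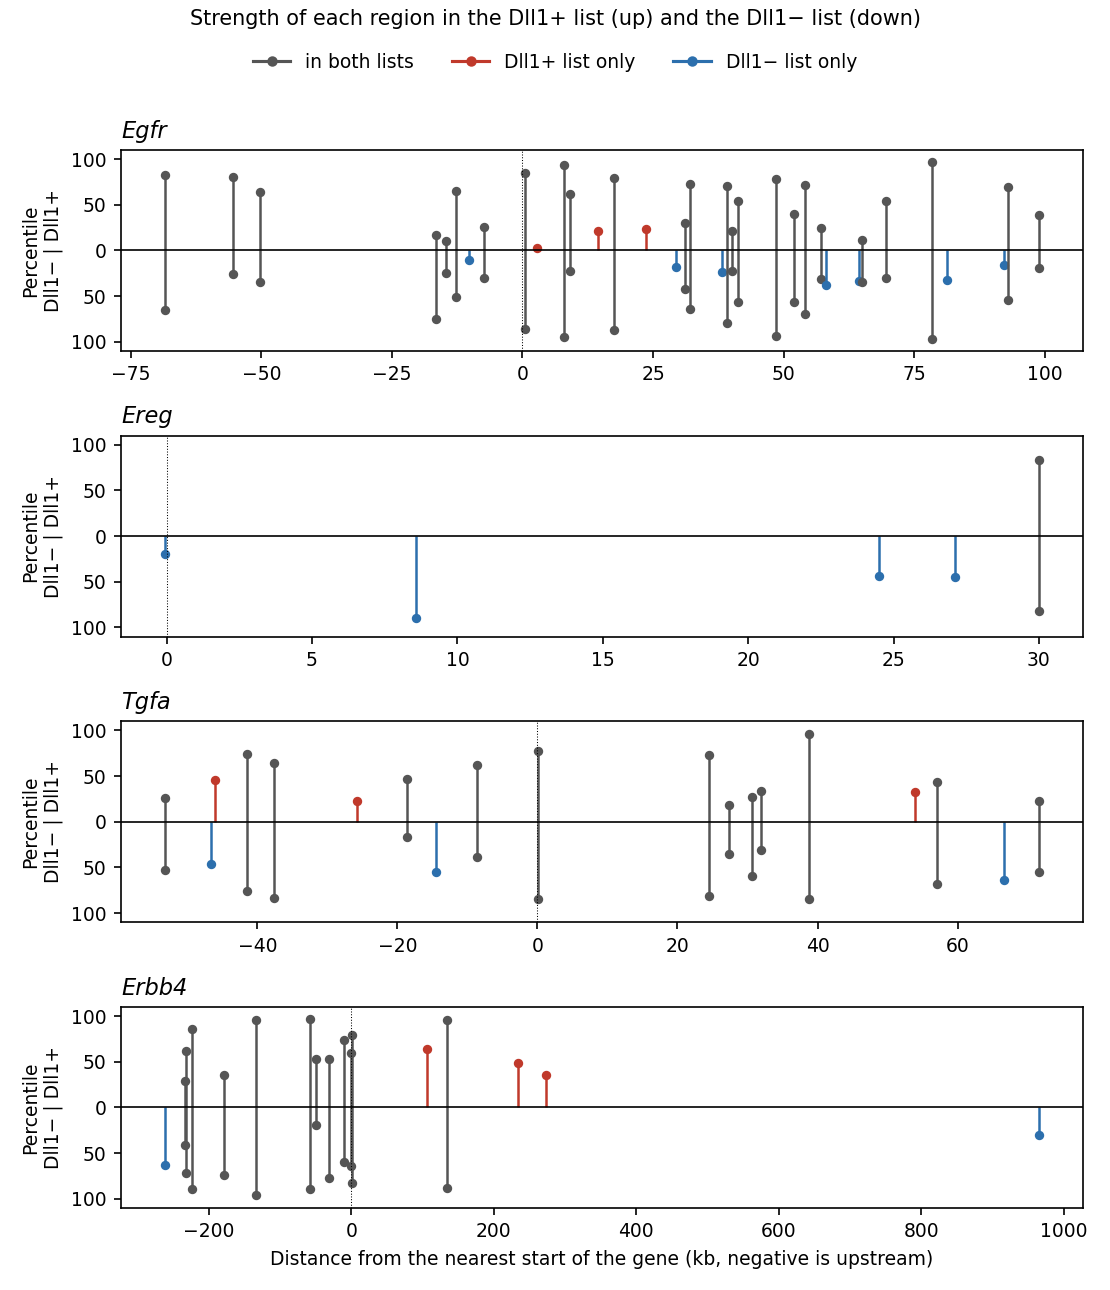
Percentile of each region of Egfr, Ereg, Tgfa and Erbb4 in the Dll1+ list (upward) and the Dll1- list (downward), by distance of its midpoint from the nearest start of the gene in kb (horizontal axis, negative is upstream). Grey regions are in both lists, and the tallest region of 1 list is the Ereg intron, at 90.1 in the Dll1- list.

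Areg and Ereg, which code for amphiregulin and epiregulin, lie side by side on chromosome 5 with 65.0 kb between their starts and 0 other protein-coding starts between them. Areg shared most of its regions between the lists and Ereg shared 1. At Areg (91139599 to 91148432, plus strand), both lists called 9 of 11 regions. Its promoter stood at percentile 88.1 (79.6 to 94.2) with 76 reads in Dll1+ cells and 89.6 (84.4 to 93.7) with 135 reads in Dll1- cells. Its strongest region, 102.3 kb downstream, stood at 94.7 and 96.0. A region 69.6 kb downstream stood at 38.6 in Dll1+ cells and 12.7 in Dll1- cells with 21 reads in each, and a region 59.2 kb downstream at 50.1 and 75.0, both with overlapping intervals. The single regions of 1 list reached percentile 22.2 in the Dll1+ list, 24.9 kb upstream, and 56.6 in the Dll1- list, 131.4 kb downstream.

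At Ereg (91074622 to 91093646, plus strand), both lists called 1 of 5 regions and the Dll1- list alone called 4. The intronic region 8.57 kb from the start, at chr5:91082985-91083393, held 106 reads in the Dll1- list at 13.05-fold, percentile 90.1 (84.2 to 94.5). Scaled to the depth of the Dll1+ list this would be 55.0 reads, on a genome-wide background where that list called peaks from 9 reads, and the nearest Dll1+ peak was 20.9 kb away. It was 1 of 26 regions at or above percentile 90 among the 29318 called in the Dll1- list alone, and it is the window with 2 AP-1 matches and a TEAD match printed first. The promoter region, at the start itself, held 24 reads at 3.05-fold, percentile 19.2 (2.90 to 43.4). Regions 24.5 and 27.1 kb downstream held 36 and 47 reads, at percentiles 44.0 and 45.3. The shared region, 30 kb downstream toward Areg, stood at 83.2 with 53 reads in Dll1+ cells and 82.1 with 92 reads in Dll1- cells.

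Ereg was thus the ErbB gene with the greatest share of regions in the Dll1- list alone, 80.0% (37.6 to 96.4) of 5. Of the 7846 genes with at least 5 regions, 63 (0.803%) had a share as high. Ereg was picked because its share was the greatest of the ErbB genes, and its 5 regions are the minimum for this comparison. Genes with more regions are included, and counting error alone less easily gives them so high a share. The 0.803% is therefore a description and not a test of Ereg. Fibroblast promoters were also called more often in the Dll1- list, 7 of 15 against 1 of 15. Of the regions of those marker genes, 46.9% were called in that list alone, against 24.6% over all genes. The same share was 37.0% for endothelial, 34.0% for immune, 30.8% for basal and 15.8% for luminal markers. The part of other cell types in the Ereg pattern was not tested.

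Hbegf, which codes for heparin-binding EGF-like growth factor, had no region in the Dll1+ list alone (chromosome 18, 36504927 to 36515805, minus strand). Both lists called 4 of its 6 regions and the Dll1- list alone called 2. The promoter stood at percentile 82.3 (76.5 to 87.3) with 197 reads in Dll1+ cells and 86.6 (83.4 to 89.3) with 420 reads in Dll1- cells. The strongest region, 22.8 kb downstream, stood at 86.5 and 87.5. All 4 shared regions ranked higher in the Dll1- list, with rank differences from -14.23 to -1.01 and overlapping intervals in each. Over all genes, 46721 of 79153 shared regions ranked higher in that list. The regions of the Dll1- list alone, 11.3 and 17.9 kb downstream, stood at 53.8 with 51 reads and at 36.0 with 71 reads.

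Tgfa, which codes for TGF-alpha, had regions ranked apart in both directions (chromosome 6, 86195223 to 86275719, plus strand). Both lists called 13 of its 19 regions and each list alone called 3. The region over its start stood at percentile 77.9 (67.3 to 86.2) with 75 reads in Dll1+ cells and 84.5 (79.1 to 89.2) with 161 reads in Dll1- cells. Its strongest region in the Dll1+ list, in an intron 38.8 kb from the start, stood at 96.0 (90.8 to 98.8) with 91 reads, against 84.5 (77.65 to 89.95) with 110 reads in the Dll1- list. Intervals at that region did not overlap. At 37.6 kb upstream the order was turned, with 83.7 (78.1 to 88.4) and 164 reads in the Dll1- list against 64.7 (51.8 to 75.5) and 70 reads in the Dll1+ list.

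The larger rank differences at Tgfa rested on fewer reads. Intronic regions 71.6 and 30.6 kb from the start had rank differences of -32.78 and -32.38, with 16 and 19 reads in the Dll1+ list against 44 and 64 reads. A region 18.7 kb upstream ranked 29.6 points higher in the Dll1+ list, with 24 reads against 23. Intervals overlapped at all 3. The highest region of the Dll1+ list alone lay 46.0 kb upstream, at percentile 45.6 and 0.23 kb from a peak of the other list, and that of the Dll1- list alone lay 66.6 kb into the gene, at 63.8.

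Nrg1, which codes for neuregulin 1, the ligand of ErbB3 and ErbB4, held the most regions of the family (chromosome 8, 31814551 to 32884029, minus strand). Both lists called 26 of its 47 regions, the Dll1+ list alone 10 and the Dll1- list alone 11. Of its 7 starts, 4 lay under 1 promoter region that stood at percentile 87.6 (82.9 to 91.5) with 225 reads in Dll1+ cells and 87.7 (83.9 to 91.1) with 265 reads in Dll1- cells. Another 2 starts lay under a region of the Dll1- list alone, at percentile 26.1 with 27 reads. The most upstream start lay under no region of either list. Where Nrg1 transcripts start in these cells was not measured.

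Inside Nrg1, regions ranked apart in both directions. In an intron 123.4 kb from the nearest start, the Dll1+ list held 68 reads at percentile 91.7 (83.7 to 96.9) and the Dll1- list 51 reads at 62.9 (46.9 to 75.1). At 211.9 kb upstream of the nearest start, the Dll1+ list held 23 reads at percentile 44.0 (17.7 to 65.9) and the Dll1- list 103 reads at 86.6 (79.9 to 91.8). Intervals did not overlap at either. The region at 174.7 kb stood at 69.2 with 37 reads in Dll1+ cells and 30.5 with 29 reads in Dll1- cells, with overlapping intervals. The strongest regions, 302.0 kb upstream in Dll1+ cells and 284.0 kb upstream in Dll1- cells, stood at 93.8 and 91.3 in their own list and at 90.7 and 73.9 in the other. Intervals at the latter did not overlap, with 45 reads for Dll1+ and 146 for Dll1-.

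The regions of 1 list at Nrg1 lay mostly in its introns. The strongest of the Dll1+ list lay 18.8 kb upstream of a start, at percentile 63.7 with 33 reads, and the next stood at 58.0 with 36 reads, 278.8 kb from the nearest start and 0.58 kb from a peak of the other list. The strongest of the Dll1- list lay 190.5 kb upstream, at 71.7 with 62 reads. Of the 11 regions of the Dll1- list alone, 4 held an AP-1 match, at percentiles 28.3, 47.3, 48.8 and 60.9.

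On reads rather than ranks, the receptor genes and the 4 genes of EGF receptor ligands had medians on different sides of that of all shared regions, while Nrg1 lay on the side of the receptors. The difference between these groups was not tested. The log2 ratio of summit reads, each divided by the genome-wide background of its list, had a median of 0.24 over all shared regions, with quartiles of -0.08 and 0.56. Its median was 0.66 over the 25 shared regions of Egfr, 0.45 over the 12 of Erbb4, 0.36 over the 2 of Erbb3 and 0.35 over the 3 of Erbb2. It was -0.27 over the 13 of Tgfa, -0.16 over the 4 of Hbegf, 0.02 over the 9 of Areg and 0.15 at the 1 of Ereg. Above the median of all shared regions stood 30 of 42 receptor regions and 6 of 27 regions of EGF receptor ligands. Of the receptor regions above it, Egfr gave 20 and Erbb4 gave 7. Nrg1 had a median of 0.33, with 16 of 26 above. By percentile, which is taken over the local background, the median rank difference was -1.42 points for the receptors and -6.61 for the EGF receptor ligands, against -1.67 over all genes. At the Egfr promoter, for example, that local background was 24.9 reads in Dll1+ cells and 29.9 in Dll1- cells, against genome-wide values of 3.74 and 7.20.

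AP-1, the family of FOS and JUN factors that ERK signaling activates, was searched as TGACTCA within 100 bases of each summit. It was present in 1 of 22 ErbB regions of the Dll1+ list alone, 4.55% (0.807 to 21.8), in 21 of 95 shared regions, 22.1% (14.9 to 31.4), and in 12 of 33 regions of the Dll1- list alone, 36.4% (22.2 to 53.4). Over all genes the shares were 4.40%, 15.4% and 30.4%, so the ErbB regions followed the order of the whole genome. The 12 regions lay at Nrg1 with 4, Egfr with 3, Erbb4 and Ereg with 2 each and Hbegf with 1. Among shared ErbB regions, AP-1 was present in 1 of 11 ranked at least 20 points higher in Dll1+ cells and in 3 of 10 ranked higher in Dll1- cells, against 3.87% and 34.8% over all genes.

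**Figure D5:**
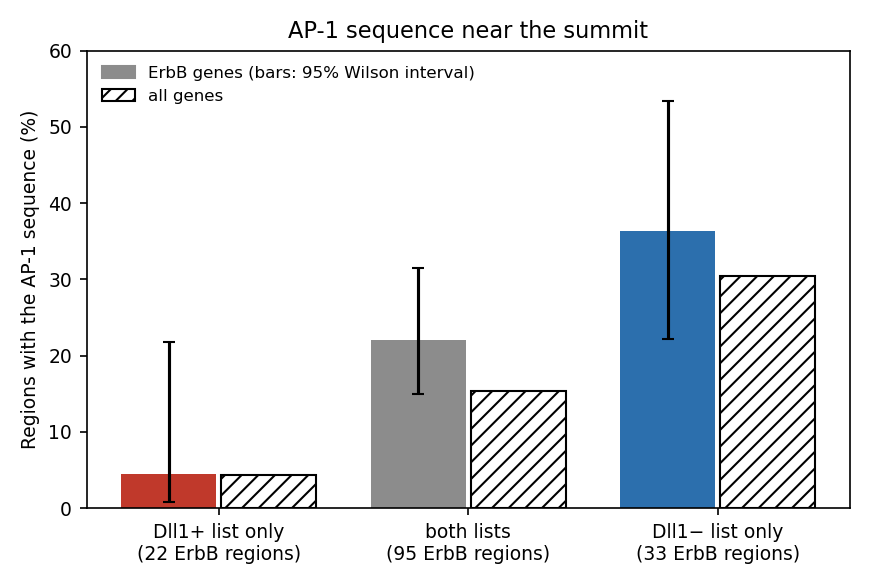
Share of regions with the AP-1 sequence within 100 bases of the summit (vertical axis, percent) in regions of the Dll1+ list alone, both lists and the Dll1- list alone, for ErbB genes (solid, with 95% Wilson intervals) and all genes (hatched). The share rises from 4.55% to 36.4% at ErbB genes and from 4.40% to 30.4% over all genes.

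Other sequences gave small counts. RBPJ was present in 3 of 22 ErbB regions of the Dll1+ list alone, 13.6% (4.75 to 33.3), and in 0 of 33 of the Dll1- list alone (0 to 10.4), against 4.36% and 4.69% over all genes. RUNX had the same counts, against 6.48% and 4.95%, and STAT was present in 4 of 22 and 1 of 33, against 7.81% and 6.81%. NF-kB was present in 0 of 22 (0 to 14.9) and 2 of 33, against 2.97% and 3.38%. TEAD was present in 4 of 22 and 10 of 33, 18.2% (7.31 to 38.5) and 30.3% (17.4 to 47.3), against 17.0% and 14.97%. GATA was present in 4 of 22 and 5 of 33, 18.2% (7.31 to 38.5) and 15.2% (6.65 to 30.9), against 7.81% and 6.20%. Of the 22 intervals for regions of 1 list, 3 did not hold the value over all genes, those of TEAD and GATA in Dll1- regions and of RBPJ in Dll1+ regions, and each lay above it.

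Beyond the receptors and ligands, 30 other genes of the pathway held 450 regions, of which both lists called 302 (67.1%, 62.6 to 71.3), the Dll1+ list alone 43 and the Dll1- list alone 105. The Dll1+ list held 29.1% (22.3 to 36.8) of their 148 regions of 1 list, near the 26.8% over all genes. The other ligands, Egf, Btc, Epgn, Nrg2, Nrg3 and Nrg4, had 9 of 54 regions (16.7%) in the Dll1+ list alone and 12 (22.2%) in the Dll1- list alone. The shedding proteases and their partners had 3 (15.8%) and 4 (21.1%) of 19. Adaptors had 7 (10.4%) and 13 (19.4%) of 67, and the downstream transcription factors Etv4, Etv5, Egr1 and Ets2 had 3 (3.896%) and 15 (19.5%) of 77. Negative regulators had 21 and 61 of their 233 regions, or 9.01% and 26.2%, near the 9.01% and 24.6% over all genes. With 233 of the 450 regions, they held the 5 largest counts of regions of 1 list among the 30 genes. Spry2, an inhibitor of receptor tyrosine kinase signaling, had 6 and 13 of 43 regions, and Lrig1, which promotes ErbB breakdown, had 5 and 10 of 37. Cblb, a ubiquitin ligase, had 1 and 13 of 30, Dusp6, a phosphatase of ERK, had 2 and 10 of 36, and Lrig3 had 3 and 5 of 29.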

How the data were processed

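Chromatin accessibility was measured by ATAC-seq in 3 Dll1+ and 4 Dll1- samples of mammary tumor cells. Per the methods of the study, the authors processed the samples of a group together with the pipeline of ENCODE for ATAC-seq, and the submitters' processing notes name mm10 and GRCm38. Its version and the aligner's settings are not given in the sources used here. One peak list per group was deposited, with 132872 peaks for Dll1+ and 148923 for Dll1-.

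In both deposited lists the authors' peak caller gave each peak a fold enrichment at the summit, which is the ratio of reads to the local background. The deposited lists also held a −log10 p-value from a Poisson model and an integer score, and the score was not used here. Reads and local background were recovered from fold and p-value, within a tolerance of 0.05 reads of a whole number for all but 1 peak. Because replicates were pooled, no p-value was computed.

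Peaks of both lists were merged where they overlapped or touched, and each region went to the nearest protein-coding start in GENCODE M21 (GRCm38.p6). A difference of 20 percentile points or more was counted. Intervals are 95% Poisson intervals on summit reads, or Wilson intervals on shares. The regions named are those over promoters, the strongest of each gene in each list, the strongest of 1 list alone, and the 5 shared regions with the widest rank differences each way. Other regions named were chosen after their values were seen. Pathway genes were named for the 5 largest counts of regions of 1 list. The genes, lists and sequences searched were chosen with earlier results of these data known. Scripts ran on Python 3.11.15 with numpy 2.4.6, pandas 2.3.3, scipy 1.17.1 and matplotlib 3.10.9, and were tested on simulated data. Alternatives changed the peak minimum, the number of peaks, the distance and start rules, the overlap, the rank measure, the promoter width and the search window.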

Additional observations from a re-analysis of the deposited data

How the results depend on the processing

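No paired analysis was possible because each group was deposited as 1 pooled list, so neither a replicate block nor leaving out each replicate could be run. With only peaks above the median fold of their list, the ErbB genes had 12 regions in the Dll1+ list alone, 18 in the Dll1- list alone and 57 in both. Counting regions of 1 list only above that median left 4 for Dll1+ and 9 for Dll1-. Within 50 kb of a start there were 10, 17 and 47. These alternatives keep fewer regions by construction. The Dll1+ share of regions of 1 list ranged from 30.8% to 47.6%, against 20.2% to 32.5% over all genes, and stood above the latter under all 9 alternatives. Its interval spanned the value over all genes under 5 of these: peaks above the median (24.6 to 57.7 against 32.5), regions of 1 list above it (12.7 to 57.6 against 20.2), equal numbers of peaks (28.7 to 54.0 against 30.8), within 50 kb (21.5 to 55.8 against 25.0) and overlap of at least 50% (29.8 to 52.4 against 31.3). The median rank difference of shared regions, -1.51, was -4.11 with the mean percentile of a region's peaks (-2.08 over all genes) and -2.35 (-5.46 to -0.88) within 50 kb (-1.99 over all genes), where its interval no longer held 0. It was 0.29 (0.17 to 0.52) as a log2 ratio of reads, another unit, against 0.24 over all genes. The promoter median was -1.20 points and 1.72 when ranked by −log10 p. That ranking turned the sign at Erbb4 (-4.11 to 5.85), Egfr (-0.88 to 2.58) and Nrg1 (-0.15 to 2.69), and the other promoters kept theirs. The Nrg1 promoter difference was 10.5 when read at the summit nearest to a start. The AP-1 share of regions of the Dll1- list alone ranged from 24.2% to 45.5%. It stood below that over all genes, 27.8% of 18 against 34.7%, among peaks above the median. Scaling the Dll1- reads to the Dll1+ depth, an alternative chosen after seeing the data, kept 98.4% of Dll1- peaks and left the counts at 22, 33 and 95, but does not repeat the choice of peaks across replicates.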
